A study of Homo sapiens with 12 samples.

Results

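The unfolded protein response and the integrated stress response were followed through 38 genes: 5 regulators, 15 targets of the transcription factor ATF4, 14 chaperones and folding factors of the endoplasmic reticulum (ER), and 4 genes of ER-associated degradation. The genes were taken as a fixed list of symbols, and all 38 had an identifier among the 48162 gene IDs of the count files. Messenger RNA was sequenced from IMR90 cells, fibroblasts grown from human lung, with 3 libraries in each of 4 groups. RAS/shDOT1L cells carried pBABE-HRASG12V together with a pLKO.1 hairpin against DOT1L, the methyltransferase of lysine 79 on histone H3. RAS cells carried pBABE-HRASG12V alone, an oncogene that drives these cells into senescence. DOT1L OE cells carried MSCB-hDot1lwt without the oncogene, and control cells carried the empty pBABE vector. All cells grew in 2% oxygen with non-essential amino acids in the medium and were selected for 4 days, with 3 µg/mL puromycin in RAS/shDOT1L, RAS and control and with 1 µg/mL blasticidin in DOT1L OE. DOT1L OE and control therefore differed in vector and drug as well as in DOT1L, and these cannot be told apart in their comparison. The labels give the same name, pLKO.1-shDOT1L, for every RAS/shDOT1L library and name no control hairpin for RAS. They do not say which of the hairpins listed in the paper was used. Nothing in the labels shows that the 3 libraries of a group came from separate cultures. A p-value here sets the difference between groups against the spread of these libraries, and that spread may be technical. The paper's figure legends call its RNA-seq replicates technical, while its methods speak of biological replicates.

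Proteins that fold badly in the ER are sensed by 3 membrane proteins. The kinase EIF2AK3 (PERK) phosphorylates the translation factor eIF2, which lowers protein synthesis as a whole while letting ATF4 be translated. ERN1 (IRE1) splices the mRNA of XBP1, and ATF6 is cut to release a transcription factor. XBP1 and ATF6 act on genes for chaperones and for ER-associated degradation, which returns misfolded proteins to the cytosol to be destroyed, and ATF4 acts on genes for amino acid supply, tRNA charging, redox balance and feedback on eIF2. Other kinases, which respond to amino acid shortage, double-stranded RNA or heme, also feed into eIF2 and ATF4, so ATF4 targets can move without the ER genes. Senescent fibroblasts secrete many proteins, many of which pass through the ER. Counts per gene measure the RNA alone: they cannot read the splicing of XBP1, the cleavage of ATF6, or the translation of ATF4.

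Library totals ran between 16128055 and 19503457 counts. DOT1L averaged 11.0 CPM (counts scaled to a common library size after TMM normalisation) in RAS/shDOT1L, 84.5 CPM in RAS, 202 CPM in DOT1L OE and 31.7 CPM in control, and HRAS 275, 503, 79.4 and 85.9 CPM in the same 4 groups. HRAS was thus lower in RAS/shDOT1L than in RAS (log2 fold change -0.85), and its part in the differences between these groups was not tested. The mitochondrial share of counts was 3.64% to 3.87% in RAS and 2.12% to 2.54% in the other 3 groups. All 8 fibroblast markers were found in every library, with a summed level of 16130 to 16710 CPM in RAS/shDOT1L, 14620 to 15050 CPM in RAS, 15010 to 15670 CPM in DOT1L OE and 19400 to 19640 CPM in control, while epithelial, endothelial and blood markers summed to at most 4.21 CPM in any list and library. By the test described below, 6 of the 8 fibroblast markers were lower and 1 higher in RAS against control (median log2 fold change -0.73). The counts were 6 and 1 in DOT1L OE against control (-0.40) and 7 and 1 in RAS/shDOT1L against control (-0.49). Of all genes, 32.0%, 29.9% and 27.6% were lower in these 3 comparisons. The part of the mitochondrial share and of these markers in the results was not tested. Changes followed the GC content of transcripts. Over 10 classes of GC content, genes of the lowest class had a median log2 fold change of -0.62 in RAS against control and 0.39 in RAS/shDOT1L against RAS. Those of the highest class had 0.58 and -0.43 in the same comparisons. A correction for this trend, the GC offset, was run as an alternative.

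All 38 genes passed the filter on low counts and were tested in every comparison. A gene is said to be higher or lower, or to have risen or fallen, where its Benjamini-Hochberg adjusted p was under 0.05 by edgeR's quasi-likelihood test over all genes. In RAS against control, 21 of the 38 genes rose and 9 fell, with a median log2 fold change of 0.18, beside 31.9% of all genes higher and 32.0% lower (64.0% called either way) and a median of -0.04. Set against RAS, RAS/shDOT1L had 9 genes higher and 15 lower, with a median of -0.10, beside 26.3% and 26.4% of all genes (52.7% either way) and a median of 0.03. In DOT1L OE against control, 7 rose and 23 fell, with a median of -0.26, beside 29.9% of all genes in each direction (59.9% either way) and a median of 0.01. Set against control, RAS/shDOT1L had 18 higher and 8 lower, with a median of 0.11, beside 27.9% and 27.6% of all genes (55.5% either way) and a median of -0.01. The comparisons share libraries, so they are given side by side. Past a change of 1.5-fold by the glmTreat test the counts were 10 higher and 2 lower in RAS against control (13.4% and 13.6% of all genes, 26.9% either way) and 4 and 4 in RAS/shDOT1L against RAS (8.34% and 8.62%, 17.0% either way). They were 2 and 6 in DOT1L OE against control (11.2% and 9.58%, 20.8% either way), and 5 and 0 in RAS/shDOT1L against control (9.44% and 9.68%, 19.1% either way). When libraries were scaled by their size alone, the median of all genes itself moved to -0.24 in RAS against control, where 16 of the 38 genes were then higher and 14 lower. Over all genes that scaling gave 3256 higher and 5573 lower in RAS against control, beside 4327 and 4343 with TMM, and 3037 and 4561 in RAS/shDOT1L against control, beside 3775 and 3726. The median moved to -0.13 in RAS/shDOT1L against control, 0.10 in RAS/shDOT1L against RAS and 0.09 in DOT1L OE against control. Without control replicate 2 or RAS/shDOT1L replicate 3, 5 genes rather than 8 were lower in RAS/shDOT1L against control.

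**Figure D1:**
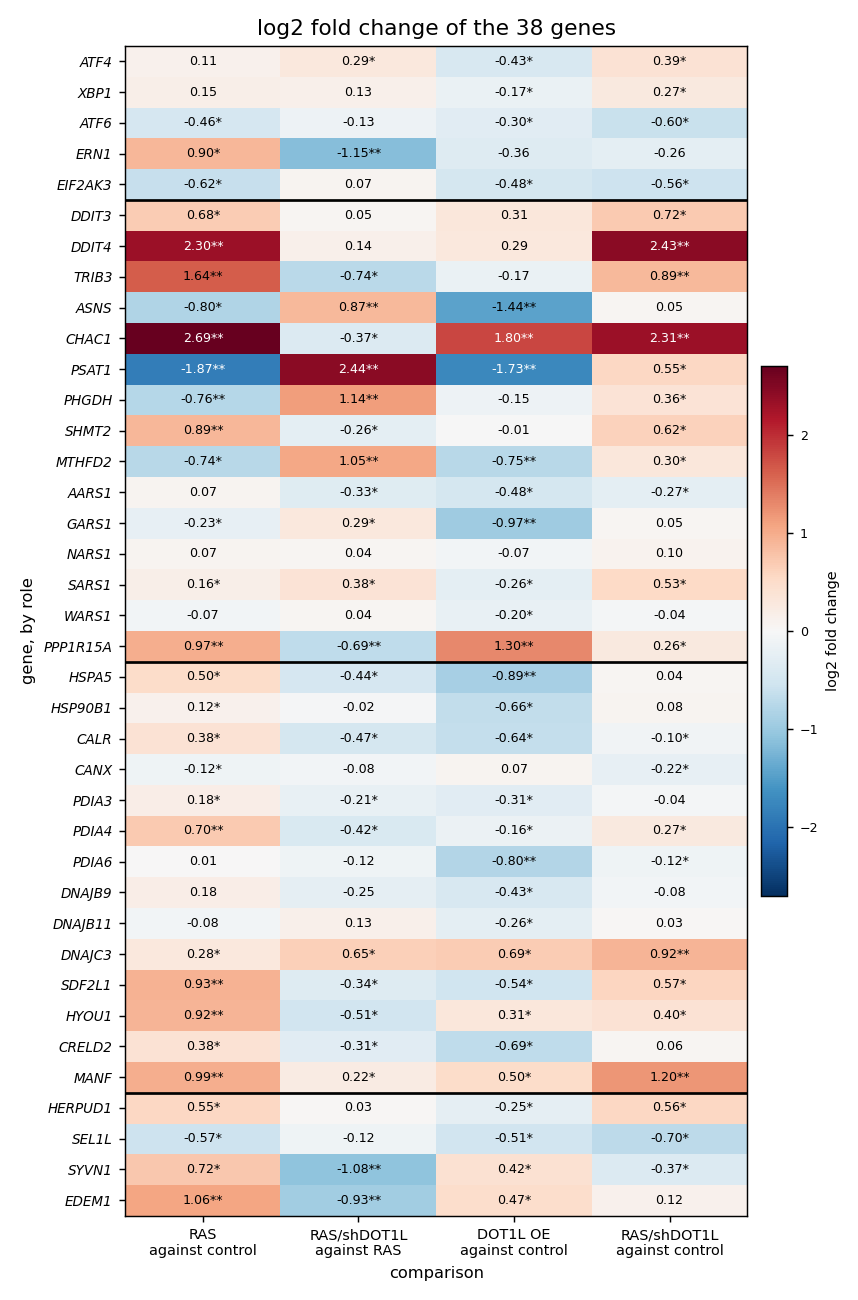
Colour map of the log2 fold change of the 38 genes (rows, by role: regulators, ATF4 targets, ER chaperones and folding, ER-associated degradation) in the 4 comparisons (columns). A star marks an adjusted p under 0.05 and a double star a change past 1.5-fold by glmTreat. PSAT1 runs from -1.87 in RAS against control to 2.44 in RAS/shDOT1L against RAS, and 10 of the 14 chaperones rose in the RAS column and 10 fell in the DOT1L OE column.

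The regulators did not share a direction in RAS, and 4 of the 5 fell in DOT1L OE. Of all genes, 31.9% rose and 32.0% fell in RAS, and 29.9% went each way in DOT1L OE. The shares were 26.3% higher and 26.4% lower in RAS/shDOT1L against RAS, and 27.9% and 27.6% in RAS/shDOT1L against control. Counts over 5 genes are a description beside such shares. Among the 5, 1 rose and 2 fell in RAS against control (3 rose with DESeq2 size factors, with the DESeq2 Wald test and with a filter on CPM, and 2 with limma-voom and with the GC offset), 1 was higher and 1 lower in RAS/shDOT1L against RAS, 0 rose and 4 fell in DOT1L OE against control, and 2 were higher and 2 lower in RAS/shDOT1L against control. ERN1 (ENSG00000178607; chromosome 17), the sensor that splices XBP1, changed most. It was at 4.96, 5.33 and 5.68 CPM in RAS/shDOT1L, at 11.9, 13.0 and 10.9 CPM in RAS, at 5.01, 5.09 and 4.87 CPM in DOT1L OE, and at 7.33, 5.23 and 6.63 CPM in control. The RAS libraries stood above all others. ERN1 rose in RAS by 0.90 ± 0.19 on the log2 scale (± SE, adjusted p = 0.000142) and RAS/shDOT1L lay 2.21-fold below RAS (log2 fold change -1.15 ± 0.21, adjusted p = 2.51e-05).

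The transcription factors gave smaller differences. ATF4 (ENSG00000128272; chromosome 22) was at 296, 280.1 and 288 CPM in RAS/shDOT1L, at 236, 235 and 243 CPM in RAS, at 156, 166 and 170.3 CPM in DOT1L OE, and at 232, 221 and 209 CPM in control. It was highest in RAS/shDOT1L and lowest in DOT1L OE, with no overlap of either group with the rest. ATF4 fell in DOT1L OE (log2 fold change -0.43 ± 0.05, adjusted p = 2.23e-08) and was higher in RAS/shDOT1L than in RAS (0.29 ± 0.05, adjusted p = 1.32e-05, and 0.55 with the GC offset), while RAS and control differed by 0.11 ± 0.05 (adjusted p = 0.0501). This last value was 0.11 to 0.13 and called with DESeq2 size factors, the DESeq2 Wald test, limma-voom and the CPM filter, and 0.14 and called without control replicate 1. It was -0.31 and called with the GC offset, and -0.09 and not called when libraries were scaled by size alone. XBP1 (ENSG00000100219; chromosome 22) was at 116, 127 and 118 CPM in RAS/shDOT1L, at 101, 109.5 and 125 CPM in RAS, at 85.1, 90.9 and 89.8 CPM in DOT1L OE, and at 103, 105 and 93.4 CPM in control. The RAS libraries overlapped with those of RAS/shDOT1L and of control (log2 fold change in RAS against control 0.15 ± 0.07, adjusted p = 0.0558). That value was 0.55 and called with the GC offset, 0.15 to 0.17 and called with DESeq2 size factors, the DESeq2 Wald test and the CPM filter, and 0.18 and 0.22 and called without control replicate 2 and without RAS replicate 1. The DOT1L OE libraries lay below the control ones for XBP1 (-0.17 ± 0.06, adjusted p = 0.016, a call that was lost with the GC offset, with scaling by size alone, and without control replicate 2 or DOT1L OE replicate 1).

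ATF6 and EIF2AK3 were lower in the other groups than in control. ATF6 (ENSG00000118217; chromosome 1) was at 57.8, 55.2 and 54.2 CPM in RAS/shDOT1L, at 58.6, 62.9 and 63.6 CPM in RAS, at 66.6, 72.5 and 67.5 CPM in DOT1L OE, and at 87.2, 86.2 and 81.3 CPM in control. All 9 libraries of the other groups lay under the lowest control library. It fell by 0.46 ± 0.07 in RAS and by 0.30 ± 0.07 in DOT1L OE on the log2 scale, and with the GC offset the RAS value was -0.06 and no longer called. EIF2AK3 (ENSG00000172071; chromosome 2) was at 9.98, 10.8 and 7.82 CPM in RAS/shDOT1L, at 7.45, 10.5 and 9.70 CPM in RAS, at 11.9, 8.68 and 9.78 CPM in DOT1L OE, and at 12.5, 16.1 and 13.8 CPM in control. Its log2 fold change was -0.62 ± 0.17 in RAS (-0.26 and not called with the GC offset), -0.48 ± 0.15 in DOT1L OE (-0.37 and not called without DOT1L OE replicate 2) and -0.56 ± 0.18 in RAS/shDOT1L against control (-0.46 and not called without control replicate 2).

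**Figure D2:**
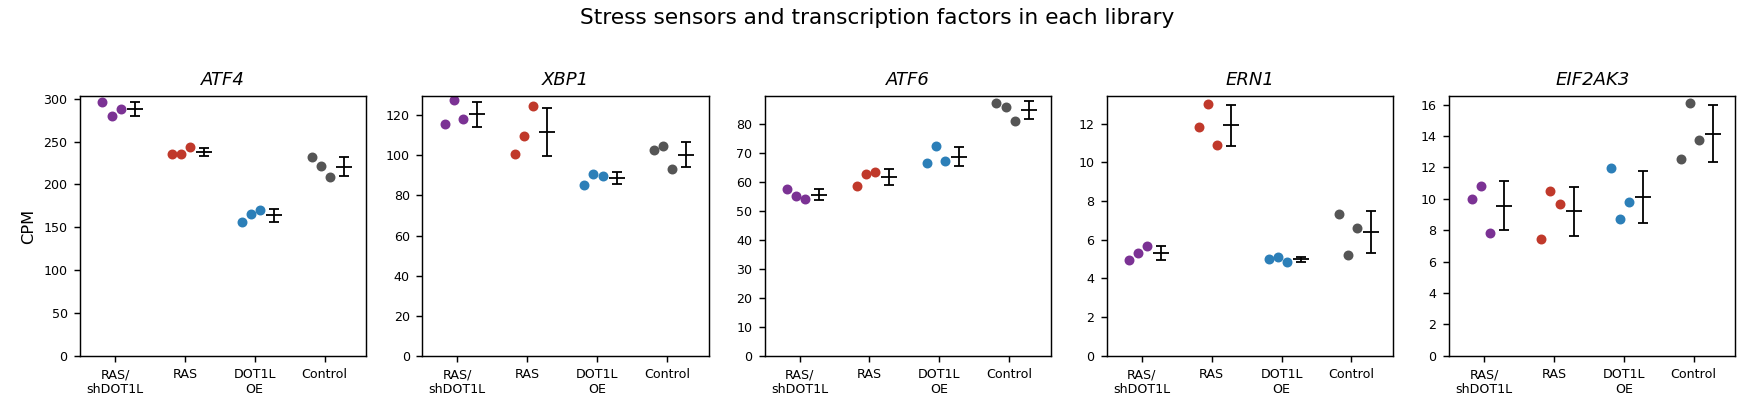
CPM of the 5 regulators (y axis, starting at 0) in each of the 12 libraries, with groups on the x axis in the order RAS/shDOT1L, RAS, DOT1L OE, control; points are libraries, and the black mark with its bar is the mean ± SD (n = 3). ERN1 is highest in the RAS libraries (10.9 to 13.0 CPM), and ATF4 is lowest in DOT1L OE (156 to 170.3 CPM).

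The ATF4 targets moved in both directions. In RAS, 7 of the 15 rose and 5 fell, with a median log2 fold change of 0.07 (5 rose and 8 fell when libraries were scaled by size alone). With TMM, 46.7% of the targets rose and 33.3% fell, beside 31.9% and 32.0% of all genes, so the falls were near that share. The shares of all genes were 26.3% and 26.4% in RAS/shDOT1L against RAS, and 29.9% each way in DOT1L OE. The genes that rose past 1.5-fold were CHAC1, which breaks down glutathione, DDIT4, an inhibitor of mTORC1, TRIB3, a pseudokinase that dampens the response, PPP1R15A (GADD34), which brings a phosphatase back to eIF2, and SHMT2, the mitochondrial serine hydroxymethyltransferase. Those that fell were PSAT1 and PHGDH, enzymes of serine synthesis, ASNS, asparagine synthetase, MTHFD2, a mitochondrial folate enzyme, and GARS1, glycyl-tRNA synthetase. Between RAS/shDOT1L and RAS, 6 were higher and 5 lower: PSAT1, PHGDH, ASNS, MTHFD2 and GARS1, which had fallen in RAS, were higher, as was SARS1, and TRIB3, PPP1R15A, CHAC1, SHMT2 and AARS1 were lower. In DOT1L OE against control 2 rose, CHAC1 and PPP1R15A, and 7 fell, with a median of -0.17.

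CHAC1 (ENSG00000128965; chromosome 15) rose most in RAS. It was at 226, 232 and 224 CPM in RAS/shDOT1L, at 285, 313 and 293 CPM in RAS, at 156, 167 and 159 CPM in DOT1L OE, and at 47.8, 50.6 and 40.1 CPM in control. The 4 groups did not overlap. Against control, CHAC1 rose 6.44-fold in RAS (log2 fold change 2.69 ± 0.07, adjusted p = 1.01e-26), 3.49-fold in DOT1L OE (1.80 ± 0.07, adjusted p = 1.23e-20) and 4.95-fold in RAS/shDOT1L (2.31 ± 0.07, adjusted p = 7.9e-21). Between RAS/shDOT1L and RAS the log2 fold change was -0.37 ± 0.05, and with the GC offset it was 0.00 and not called.

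DDIT4 (ENSG00000168209; chromosome 10) was counted at low levels. It was at 8.67, 9.03 and 7.95 CPM in RAS/shDOT1L, at 6.14, 8.48 and 9.06 CPM in RAS, at 1.23, 2.33 and 2.25 CPM in DOT1L OE, and at 2.58, 1.24 and 0.955 CPM in control. Both groups with the oncogene stood apart from both groups without it. The log2 fold change was 2.30 ± 0.32 in RAS against control (adjusted p = 1.98e-07) and 2.43 ± 0.32 in RAS/shDOT1L against control (adjusted p = 1.96e-07), while RAS/shDOT1L overlapped with RAS (0.14 ± 0.22, adjusted p = 0.635) and DOT1L OE with control (0.29 ± 0.42, adjusted p = 0.566). TRIB3 averaged 39.1 ± 3.29 CPM in RAS/shDOT1L, 66.0 ± 4.75 CPM in RAS, 18.8 ± 0.781 CPM in DOT1L OE and 21.2 ± 1.97 CPM in control (mean ± SD, n = 3), a rise in RAS of 1.64 ± 0.10 and a difference of -0.74 ± 0.09 between RAS/shDOT1L and RAS on the log2 scale (1.09 and -0.36 with the GC offset). PPP1R15A averaged 179 ± 5.14 CPM in RAS/shDOT1L, 293 ± 13.0 CPM in RAS, 366 ± 3.19 CPM in DOT1L OE and 149.5 ± 3.38 CPM in control, so that DOT1L OE had its highest level (log2 fold change 1.30 ± 0.05 against control, adjusted p = 2.06e-21) and RAS/shDOT1L lay below RAS (-0.69 ± 0.05, and -0.42 with the GC offset). Its rise in RAS was 0.97 ± 0.05, and 0.54 with the GC offset. DDIT3 (CHOP), the transcription factor tied to cell death under prolonged ER stress, was low, at 3.80 ± 0.397 to 6.22 ± 1.02 CPM over the groups. Its rise in RAS (0.68 ± 0.26, adjusted p = 0.0232) was not called with the GC offset, with scaling by size alone, or without control replicate 2, control replicate 3 or RAS replicate 1. Of its exon bases, 27.2% overlap MARS1 on the opposite strand, and reads of the 2 genes there cannot be told apart where strand was not used in counting.

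PSAT1 (ENSG00000135069; chromosome 9) had the opposite pattern. It was at 54.2, 48.4 and 51.5 CPM in RAS/shDOT1L, at 8.04, 10.9 and 9.89 CPM in RAS, at 12.4, 9.95 and 9.50 CPM in DOT1L OE, and at 34.5, 35.8 and 35.3 CPM in control. RAS and DOT1L OE were both far below control, and RAS/shDOT1L was above it. PSAT1 fell 3.66-fold in RAS (log2 fold change -1.87 ± 0.13, adjusted p = 5.29e-14) and 3.32-fold in DOT1L OE (-1.73 ± 0.11, adjusted p = 1.55e-14). RAS/shDOT1L exceeded RAS 5.41-fold (2.44 ± 0.13, adjusted p = 6.09e-17). With the GC offset the log2 fold changes were -1.51 in RAS, -1.67 in DOT1L OE and 2.18 between RAS/shDOT1L and RAS. PHGDH (ENSG00000092621; chromosome 1), the first enzyme of serine synthesis, was at 60.6, 51.8 and 49.0 CPM in RAS/shDOT1L, at 26.8, 23.7 and 23.9 CPM in RAS, at 36.6, 38.5 and 38.5 CPM in DOT1L OE, and at 40.6, 44.8 and 40.8 CPM in control. RAS lay below control (-0.76 ± 0.10) and RAS/shDOT1L 2.20-fold above RAS (1.14 ± 0.11, adjusted p = 1.3e-10), and in DOT1L OE it did not pass the test (-0.15 ± 0.08, adjusted p = 0.135), though it was -0.24 and called with the GC offset.

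ASNS and MTHFD2 followed PSAT1 in direction. ASNS averaged 29.4 ± 1.55 CPM in RAS/shDOT1L, 16.3 ± 2.02 CPM in RAS, 10.4 ± 0.131 CPM in DOT1L OE and 28.4 ± 4.17 CPM in control. Its fall in DOT1L OE was 2.72-fold (log2 fold change -1.44 ± 0.12, adjusted p = 6.97e-12), its fall in RAS was 1.74-fold (-0.80 ± 0.13), and RAS/shDOT1L overlapped with control (0.05 ± 0.12, adjusted p = 0.718). MTHFD2 averaged 55.2 ± 3.65 CPM in RAS/shDOT1L, 27.0 ± 2.25 CPM in RAS, 26.7 ± 2.35 CPM in DOT1L OE and 45.1 ± 1.86 CPM in control, with log2 fold changes of -0.74 ± 0.10 in RAS against control, 1.05 ± 0.10 in RAS/shDOT1L against RAS and -0.75 ± 0.09 in DOT1L OE against control. SHMT2, whose product works beside MTHFD2 in the mitochondrial folate pathway, went the other way in RAS (0.89 ± 0.05, and 0.47 with the GC offset) and did not pass the test in DOT1L OE (-0.01 ± 0.06, adjusted p = 0.855). The transcripts of CHAC1 (61.3%), DDIT4 (59.7%) and TRIB3 (61.5%), which rose in RAS, were richer in GC than those of PSAT1 (42.5%), ASNS (42.7%) and MTHFD2 (42.2%). SHMT2 (57.0%), PPP1R15A (57.7%) and SARS1 (52.7%), which rose, and GARS1 (38.9%), which fell, followed the same order. The transcript of PHGDH, which fell, had 52.3%, above DDIT3 (49.7%), whose rise was not called with the GC offset (0.58). The part of GC content in this split was not tested. With the GC offset the log2 fold change in RAS was 2.14 for CHAC1, 1.81 for DDIT4 and 1.09 for TRIB3 against -0.46 for ASNS, -0.36 for MTHFD2 and -0.98 for PHGDH, and these 6 genes were still called.

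The tRNA synthetases among the targets changed less than 2-fold. For RAS against control the log2 fold change was 0.16 for SARS1, 0.07 for AARS1 and for NARS1, -0.07 for WARS1 and -0.23 for GARS1, of which SARS1 and GARS1 were called. With the GC offset NARS1 was 0.46, WARS1 -0.26 and AARS1 -0.15, all 3 called, and GARS1 turned to 0.25. SARS1 lost its call with the GC offset (-0.07) and when libraries were scaled by size alone (-0.04). In DOT1L OE, GARS1 fell most, to 154 ± 12.8 CPM in DOT1L OE, against 302 ± 20.5 CPM in control (log2 fold change -0.97 ± 0.06, adjusted p = 5.94e-16), followed by AARS1 (-0.48), SARS1 (-0.26) and WARS1 (-0.20, or -0.12 and not called when libraries were scaled by size alone), while NARS1 (-0.07) did not pass the test. Between RAS/shDOT1L and control, 10 of the 15 ATF4 targets were higher and 1, AARS1, was lower, with a median of 0.36, and DDIT4, CHAC1 and TRIB3 were the 3 past 1.5-fold. Of all genes there, 27.9% were higher and 27.6% lower, and 9.44% and 9.68% past 1.5-fold.

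**Figure D3:**
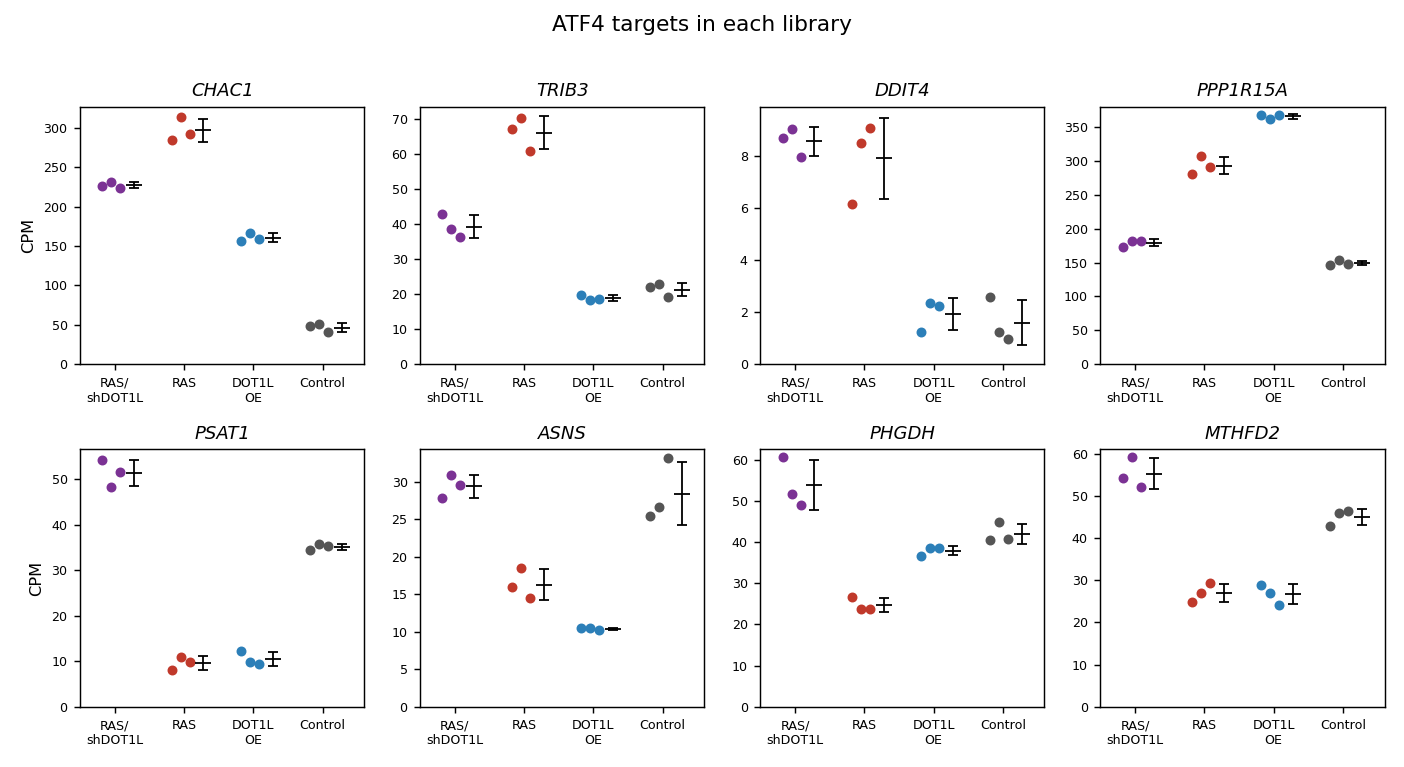
CPM of 8 ATF4 targets (y axis, starting at 0) in each library, with groups on the x axis in the order RAS/shDOT1L, RAS, DOT1L OE, control; points are libraries, and the black mark with its bar is the mean ± SD (n = 3). The upper row shows CHAC1, TRIB3, DDIT4 and PPP1R15A, which were higher in RAS than in control, and the lower row PSAT1, ASNS, PHGDH and MTHFD2, which were lower in RAS and higher again in RAS/shDOT1L.

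ATF4 acts with partners of the C/EBP family at a composite site, TGATGNAA, the C/EBP-ATF response element. In the RefSeq promoters of GRCh38.p14, which run from 250 bases before to 50 bases after a start, 36 of the 38 genes had an entry, and this site, searched on both strands, stood in 6 of the 36, 5 of them ATF4 targets (AARS1, ASNS, CHAC1, GARS1 and NARS1), and in 4.46% of all genes of the table. The promoters of ASNS and CHAC1 are shown because both hold the site while the RNA of CHAC1 rose and that of ASNS fell in RAS and in DOT1L OE. Capitals mark the site, which lies at position -68 from the start in ASNS on the strand of the gene and at -209 in CHAC1 on the opposite strand (chr7:97872359-97872658, minus strand, and chr15:40953221-40953520, plus strand).
ASNS: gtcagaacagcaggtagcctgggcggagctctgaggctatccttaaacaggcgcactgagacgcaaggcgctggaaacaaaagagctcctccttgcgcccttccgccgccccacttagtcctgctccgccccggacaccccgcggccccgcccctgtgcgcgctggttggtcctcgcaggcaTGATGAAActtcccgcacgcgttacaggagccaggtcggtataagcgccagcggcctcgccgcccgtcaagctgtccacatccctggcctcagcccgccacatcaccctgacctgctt
CHAC1: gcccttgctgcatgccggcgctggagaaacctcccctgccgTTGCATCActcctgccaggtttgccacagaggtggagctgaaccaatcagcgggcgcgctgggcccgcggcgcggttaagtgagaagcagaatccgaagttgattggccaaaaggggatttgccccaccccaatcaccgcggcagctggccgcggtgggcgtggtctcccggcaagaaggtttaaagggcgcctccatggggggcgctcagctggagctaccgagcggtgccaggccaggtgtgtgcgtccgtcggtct

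The ER chaperones and folding factors rose modestly in RAS and fell in DOT1L OE. Of all genes, 31.9% were higher and 32.0% lower in RAS against control, and 26.3% and 26.4% in RAS/shDOT1L against RAS. These shares were 29.9% each way in DOT1L OE against control, and 27.9% and 27.6% in RAS/shDOT1L against control. In RAS against control, 10 of the 14 were higher and 1 lower, with a median log2 fold change of 0.33 (13 higher and 0 lower with the GC offset, and 7 higher and 3 lower when libraries were scaled by size alone). MANF, SDF2L1, HYOU1 and PDIA4 passed 1.5-fold, at 0.99, 0.93, 0.92 and 0.70 (PDIA4 0.44 with the GC offset), and HSPA5 (0.50), CALR (0.38) and CRELD2 (0.38) rose by less, CALR and CRELD2 by 0.10 and 0.06 with the GC offset, where CRELD2 was no longer called. The small rises of HSP90B1 (0.12) and PDIA3 (0.18) had the opposite sign when libraries were scaled by size alone (-0.08 and -0.02), while with the GC offset they were 0.62 and 0.21. Between RAS/shDOT1L and RAS, 7 were lower and 2, DNAJC3 and MANF, higher, with a median of -0.23 and none past 1.5-fold. In DOT1L OE against control, 10 fell and 3 rose, with a median of -0.37. The fall included HSPA5, CALR and HSP90B1, and the genes that rose were DNAJC3, MANF and HYOU1. Between RAS/shDOT1L and control, 5 were higher and 3 lower (CANX -0.22, PDIA6 -0.12 and CALR -0.10), with a median of 0.05. Those were 35.7% and 21.4% of the list, near the shares of all genes. With the GC offset 8 were higher and 1 lower, and HSP90B1 (0.27), DNAJB11 (0.21) and HSPA5 (0.12) gained calls. Of the 3 lower genes, CALR alone was still called with the GC offset, CANX alone with the replicate number as a block, and PDIA6 lost its call without any of 5 of the 6 libraries (all but RAS/shDOT1L replicate 1). CALR lost its call without control replicate 1, control replicate 3 or RAS/shDOT1L replicate 3, at -0.08 to -0.10.

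HSPA5 (BiP; ENSG00000044574; chromosome 9) is the master chaperone of the ER lumen, which also holds the sensors inactive. It was at 698, 692 and 687 CPM in RAS/shDOT1L, at 939, 976 and 946 CPM in RAS, at 363, 365 and 357 CPM in DOT1L OE, and at 653, 676 and 693 CPM in control. RAS lay above and DOT1L OE far below the other libraries, and RAS/shDOT1L overlapped with control. HSPA5 rose 1.41-fold in RAS (log2 fold change 0.50 ± 0.03, adjusted p = 1.67e-14, and 0.76 with the GC offset) and fell 1.86-fold in DOT1L OE (-0.89 ± 0.04, adjusted p = 1.4e-18). RAS/shDOT1L lay 1.36-fold below RAS (-0.44 ± 0.04, adjusted p = 2.8e-11). PDIA6 (ENSG00000143870; chromosome 2), a disulfide isomerase, was at 251, 228 and 239 CPM in RAS/shDOT1L, at 266, 259 and 266 CPM in RAS, at 150.3, 149.7 and 149.6 CPM in DOT1L OE, and at 263, 263 and 257 CPM in control. The DOT1L OE libraries stood apart from the rest (-0.80 ± 0.05 against control, adjusted p = 1.32e-15). CALR, the lectin chaperone calreticulin, averaged 1136 ± 33.4 CPM in RAS/shDOT1L, 1597 ± 21.9 CPM in RAS, 784 ± 11.4 CPM in DOT1L OE and 1222 ± 32.7 CPM in control. Its partner CANX, calnexin, did not share the fall in DOT1L OE (0.07 ± 0.04, adjusted p = 0.158). There it was 0.11 and called higher with the GC offset, and 0.15 and called higher when libraries were scaled by size alone. In RAS its small fall (-0.12) turned to 0.31 with the GC offset. HSP90B1 (GRP94) fell in DOT1L OE by 0.66 ± 0.05 and CRELD2 by 0.69 ± 0.08 on the log2 scale.

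MANF (ENSG00000145050; chromosome 3), a small ER protein that binds BiP and can be secreted, behaved differently. It was at 95.4, 82.2 and 83.0 CPM in RAS/shDOT1L, at 70.6, 74.7 and 80.5 CPM in RAS, at 50.7, 52.8 and 57.1 CPM in DOT1L OE, and at 37.8, 39.7 and 36.1 CPM in control. The groups did not overlap and all 3 others were above control. Against control it rose 1.99-fold in RAS (0.99 ± 0.08, adjusted p = 1.9e-12), 1.42-fold in DOT1L OE (0.50 ± 0.08, adjusted p = 2.5e-06) and 2.30-fold in RAS/shDOT1L (1.20 ± 0.08, adjusted p = 7.48e-13). Its difference between RAS/shDOT1L and RAS (0.22 ± 0.08, adjusted p = 0.0173) was lost without RAS replicate 1, RAS replicate 2 or RAS/shDOT1L replicate 1, at 0.15 to 0.21. DNAJC3 (P58IPK; ENSG00000102580; chromosome 13), a co-chaperone of BiP, was at 46.6, 40.3 and 47.2 CPM in RAS/shDOT1L, at 26.3, 29.6 and 30.9 CPM in RAS, at 38.9, 36.0 and 39.7 CPM in DOT1L OE, and at 21.7, 25.5 and 24.0 CPM in control. RAS/shDOT1L and DOT1L OE held the highest levels. DNAJC3 was higher in RAS/shDOT1L than in RAS (0.65 ± 0.11, adjusted p = 7.35e-06, and 0.34 with the GC offset) and in DOT1L OE than in control (0.69 ± 0.10, adjusted p = 2.25e-07), while its rise in RAS (0.28 ± 0.12, adjusted p = 0.0343, and 0.79 with the GC offset) was 0.09 and not called when libraries were scaled by size alone. Nor was it called without control replicate 1, control replicate 3, RAS replicate 2 or RAS replicate 3.

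SDF2L1 and HYOU1 rose together in RAS and parted in DOT1L OE. SDF2L1 (ENSG00000128228; chromosome 22), a partner of ER DnaJ proteins, was at 49.2, 48.2 and 47.9 CPM in RAS/shDOT1L, at 70.1, 58.0 and 58.5 CPM in RAS, at 18.8, 22.1 and 26.2 CPM in DOT1L OE, and at 31.7, 35.7 and 30.5 CPM in control. It rose 1.91-fold in RAS (0.93 ± 0.09) and fell 1.45-fold in DOT1L OE (-0.54 ± 0.11, adjusted p = 0.000104). Its transcript has the highest GC content of the genes described (65.1%), and with the GC offset its log2 fold change was 0.31 in RAS against control and 0.11, not called, in RAS/shDOT1L against RAS, where it was -0.34 ± 0.09 without the offset. HYOU1 (ENSG00000149428; chromosome 11), which recharges BiP by nucleotide exchange, was at 97.0, 111 and 123 CPM in RAS/shDOT1L, at 166, 155 and 157 CPM in RAS, at 105, 107 and 98.9 CPM in DOT1L OE, and at 86.3, 80.6 and 85.2 CPM in control. RAS stood above all others, and DOT1L OE lay above control. HYOU1 rose 1.89-fold in RAS (0.92 ± 0.06, adjusted p = 3.62e-15, and 0.56 with the GC offset) and 1.24-fold in DOT1L OE (0.31 ± 0.06, adjusted p = 5.25e-05), and RAS/shDOT1L lay 1.43-fold below RAS (-0.51 ± 0.07, adjusted p = 2.86e-07, and -0.30 with the GC offset).

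Genes of the unfolded protein response carry the ER stress element, CCAAT then 9 bases of any kind then CCACG, or a second form, ATTGG then 1 base then CCACG, and some the unfolded protein response element TGACGTGG. On either strand the first form stood in 7 of the 36 genes with a promoter (CALR, CANX, CRELD2, HSP90B1, HSPA5, PDIA6 and XBP1) and in 0.0916% of all genes of the table, and the second in 3 of 36 (HYOU1, SDF2L1 and HERPUD1) and 0.0696%. TGACGTGG stood in 1 of 36 (HYOU1, where it overlaps a copy of the second form) and in 0.927%. Promoters of HSPA5, PDIA6 and HYOU1 are shown because they hold these elements while the RNA of HSPA5 and PDIA6 fell and that of HYOU1 rose in DOT1L OE. Capitals mark the first form in HSPA5 (position -66 from the start) and PDIA6 (-86) and the second form with TGACGTGG in HYOU1 (chr9:125241294-125241593, chr2:10812736-10813035 and chr11:119057156-119057455, all on the minus strand of GRCh38.p14).
HSPA5: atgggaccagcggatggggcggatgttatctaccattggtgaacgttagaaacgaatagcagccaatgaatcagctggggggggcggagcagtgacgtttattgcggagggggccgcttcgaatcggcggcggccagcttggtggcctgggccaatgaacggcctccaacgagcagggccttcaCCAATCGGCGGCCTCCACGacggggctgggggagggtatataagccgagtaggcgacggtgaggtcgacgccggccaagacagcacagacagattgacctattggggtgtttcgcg
PDIA6: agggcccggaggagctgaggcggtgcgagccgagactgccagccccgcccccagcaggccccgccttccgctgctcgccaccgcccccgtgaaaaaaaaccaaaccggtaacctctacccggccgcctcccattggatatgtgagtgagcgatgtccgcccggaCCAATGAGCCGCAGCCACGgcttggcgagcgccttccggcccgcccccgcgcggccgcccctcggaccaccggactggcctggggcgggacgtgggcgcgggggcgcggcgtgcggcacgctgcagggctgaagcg
HYOU1: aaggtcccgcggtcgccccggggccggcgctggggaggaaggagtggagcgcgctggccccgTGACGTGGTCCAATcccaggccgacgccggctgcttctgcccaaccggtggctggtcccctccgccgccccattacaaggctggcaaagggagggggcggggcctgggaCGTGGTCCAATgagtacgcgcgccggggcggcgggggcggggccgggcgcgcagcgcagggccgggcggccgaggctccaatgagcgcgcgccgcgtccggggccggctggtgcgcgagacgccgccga

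The ER-associated degradation genes gave 3 rises and 1 fall in RAS (median 0.63), and 2 rises and 2 falls in DOT1L OE (0.08). RAS/shDOT1L had 0 higher and 2 lower against RAS (-0.53), and 1 higher and 2 lower against control (-0.13). Higher and lower shares of all genes were 31.9% and 32.0% in RAS, and 29.9% each way in DOT1L OE. For RAS/shDOT1L they were 26.3% and 26.4% against RAS, and 27.9% and 27.6% against control. Beside such shares, counts over so few genes are a description. EDEM1 (ENSG00000134109; chromosome 3), which hands misfolded glycoproteins over for degradation, was at 51.3, 53.1 and 53.1 CPM in RAS/shDOT1L, at 105, 107 and 92.5 CPM in RAS, at 62.0, 70.7 and 68.0 CPM in DOT1L OE, and at 48.7, 47.7 and 49.4 CPM in control. RAS was highest, DOT1L OE lay between, and RAS/shDOT1L was close to control. EDEM1 rose 2.09-fold in RAS (1.06 ± 0.07, adjusted p = 2.19e-14) and 1.38-fold in DOT1L OE (0.47 ± 0.07, adjusted p = 1.94e-06). RAS/shDOT1L lay 1.91-fold below RAS (-0.93 ± 0.08, adjusted p = 6.84e-12), and RAS/shDOT1L against control did not pass the test (0.12 ± 0.08, adjusted p = 0.249). SYVN1 (HRD1; ENSG00000162298; chromosome 11), the ubiquitin ligase of the pathway, was at 27.6, 23.3 and 20.8 CPM in RAS/shDOT1L, at 55.4, 49.4 and 48.6 CPM in RAS, at 42.5, 41.1 and 40.4 CPM in DOT1L OE, and at 25.9, 38.9 and 28.5 CPM in control. It rose in RAS (0.72 ± 0.11, adjusted p = 1.36e-06, and 0.32 with the GC offset) and in DOT1L OE (0.42 ± 0.11, adjusted p = 0.0011). RAS/shDOT1L lay 2.11-fold below RAS (-1.08 ± 0.11, adjusted p = 1.02e-09). Control replicate 2 stood above its group. In RAS/shDOT1L against control the value was -0.37 ± 0.14 (adjusted p = 0.0234), with overlap between the groups, and it was -0.19 and not called without that library, and not called either without RAS/shDOT1L replicate 2 (-0.36) or 3 (-0.29). Of the SYVN1 exon bases, 6.48% overlap MRPL49 and 2.37% overlap FAU.

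SEL1L, the adaptor that holds SYVN1 in its complex, did not follow it. SEL1L (ENSG00000071537; chromosome 14) was at 69.7, 80.1 and 80.6 CPM in RAS/shDOT1L, at 85.7, 83.6 and 84.6 CPM in RAS, at 87.8, 91.1 and 84.5 CPM in DOT1L OE, and at 125, 123 and 128 CPM in control. Every library of the other groups was below control. SEL1L fell in RAS (-0.57 ± 0.06, adjusted p = 6.87e-10, but -0.07 and not called with the GC offset), in DOT1L OE (-0.51 ± 0.06, adjusted p = 3.55e-09, and -0.40 with the offset) and in RAS/shDOT1L against control (-0.70 ± 0.07, adjusted p = 9.39e-10, and -0.52 with the offset). HERPUD1 (ENSG00000051108; chromosome 16), an ER membrane protein of the same complex, was at 72.2, 73.8 and 68.3 CPM in RAS/shDOT1L, at 67.2, 78.6 and 67.5 CPM in RAS, at 40.9, 41.7 and 39.4 CPM in DOT1L OE, and at 45.5, 50.1 and 50.0 CPM in control. The groups with the oncogene overlapped with each other and lay above those without it. HERPUD1 rose 1.46-fold in RAS (0.55 ± 0.08, adjusted p = 5.03e-07), was 1.48-fold higher in RAS/shDOT1L than in control (0.56 ± 0.08, adjusted p = 8.81e-07) and fell 1.19-fold in DOT1L OE (-0.25 ± 0.08, adjusted p = 0.00773). This last call was lost when libraries were scaled by size alone (-0.17), which left 1 of the 4 degradation genes lower in DOT1L OE.

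**Figure D4:**
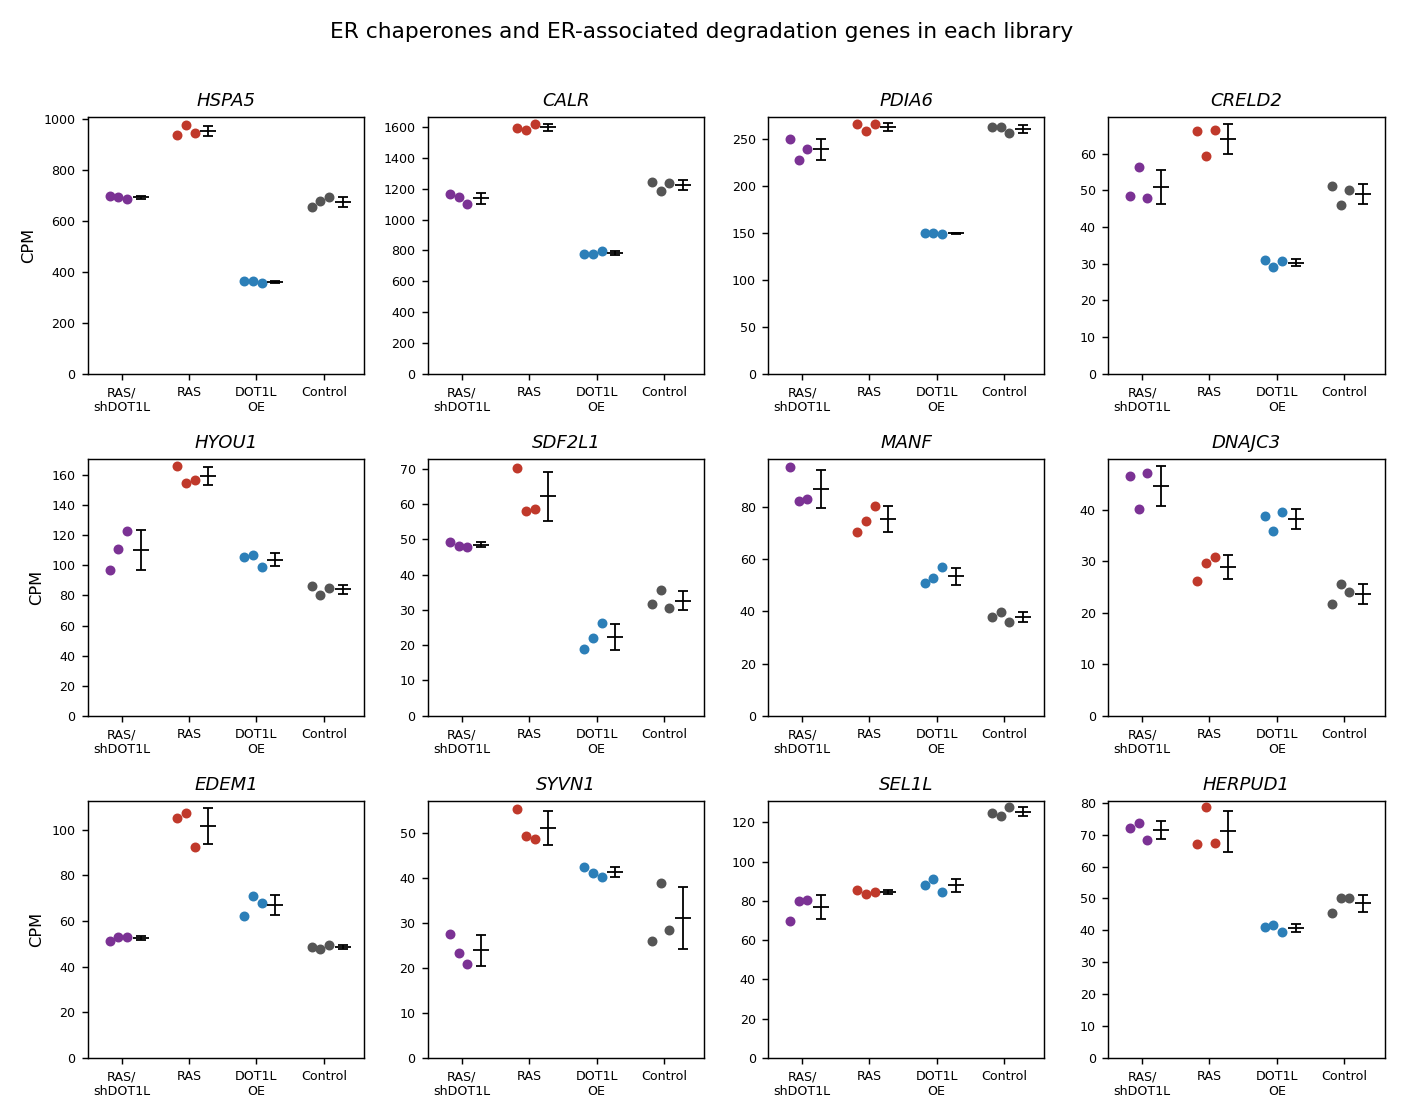
CPM of 8 chaperones and folding factors and of 4 ER-associated degradation genes (y axis, starting at 0) in each library, with groups on the x axis in the order RAS/shDOT1L, RAS, DOT1L OE, control; points are libraries, and the black mark with its bar is the mean ± SD (n = 3). HSPA5, CALR, PDIA6 and CRELD2 are lowest in DOT1L OE, whereas MANF, DNAJC3 and HYOU1 are higher there than in control.

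Set side by side, 14 of the 21 genes that rose in RAS against control were lower in the comparison of RAS/shDOT1L with RAS, 3 were higher and 4 were not called, and of the 9 that fell in RAS, 5 were then higher and 4 were not called. Both comparisons use the same RAS libraries, and this pattern was not counted over all genes, so these counts are a description. The trend with GC content also ran in opposite directions in the 2 comparisons. With the GC offset, CHAC1, SHMT2, GARS1, SDF2L1 and CRELD2 were no longer called in RAS/shDOT1L against RAS, while PSAT1 (2.18), PHGDH (1.27), MTHFD2 (0.79), ASNS (0.62), ERN1 (-1.09), EDEM1 (-1.07), SYVN1 (-0.83) and HSPA5 (-0.65) were still called. The offset also gave calls to 8 further genes there: DNAJB9 (-0.61), SEL1L (-0.44), ATF6 (-0.38), CANX (-0.35), HSP90B1 (-0.34), PDIA6 (-0.24) and NARS1 (-0.22) were lower and WARS1 (0.16) higher.

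**Figure D5:**
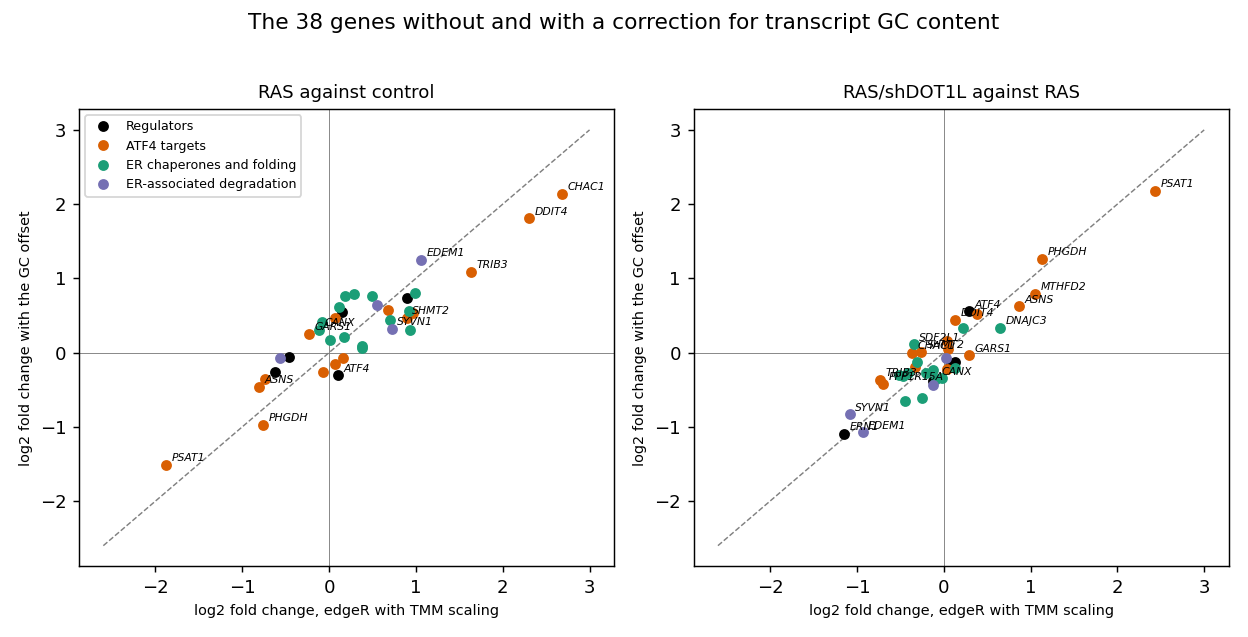
Log2 fold change of the 38 genes from edgeR with TMM scaling (x axis) and with the GC offset added (y axis) in RAS against control (left) and in RAS/shDOT1L against RAS (right); each point is a gene, colours give its role, and the dashed line marks equal values. PSAT1, PHGDH and EDEM1 are on the same side of 0 on both axes in both panels, whereas in RAS against control ATF4 (-0.31), GARS1 (0.25) and CANX (0.31) have the opposite sign on the y axis.

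Other genes of these pathways were taken from 9 lists of 114 genes. Their values come from edgeR with TMM scaling and are not given with the GC offset or the other alternatives. Over all genes, 31.9% were higher and 32.0% lower in RAS against control, and 26.3% and 26.4% in RAS/shDOT1L against RAS. The shares were 29.9% each way in DOT1L OE against control, and 27.9% and 27.6% in RAS/shDOT1L against control. Among the kinases, subunits and phosphatase of eIF2 control, 4 of 12 rose and 3 fell in RAS (33.3% and 25%). EIF2AK4 (GCN2), the kinase that senses uncharged tRNA, fell in RAS (-0.50 ± 0.05) and in DOT1L OE (-0.73 ± 0.05) and was higher in RAS/shDOT1L than in RAS (0.65 ± 0.06). Of 26 further ATF4 program genes tested, 13 rose and 11 fell in RAS, 12 were higher and 5 lower in RAS/shDOT1L against RAS, 7 rose and 9 fell in DOT1L OE, and 10 were higher and 9 lower in RAS/shDOT1L against control. In DOT1L OE, SLC7A11 (2.63 ± 0.13) and SLC3A2 (2.39 ± 0.06), the subunits of the cystine exchanger, and SLC7A5 (1.18 ± 0.05), a transporter of large neutral amino acids that also pairs with SLC3A2, rose. Of this list 5 genes rose and 5 fell past 1.5-fold in DOT1L OE. The 3 largest falls, named after their values were seen, were those of ALDH1L2, a mitochondrial folate enzyme (-1.95 ± 0.13), PYCR1, an enzyme of proline synthesis (-1.74 ± 0.09), and NUPR1, a stress-induced cofactor of transcription (-1.55 ± 0.08). In RAS, SLC38A2, a transporter of small neutral amino acids, fell (-1.17 ± 0.04), as did NUPR1 (-1.92 ± 0.12), and CARS1, cysteinyl-tRNA synthetase, rose (0.97 ± 0.06). IARS1, isoleucyl-tRNA synthetase, was lower in RAS/shDOT1L against RAS (-1.45 ± 0.06).

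Among 15 other ER folding and redox genes, 5 rose and 4 fell in RAS, 3 were higher and 6 lower in RAS/shDOT1L against RAS, and 4 rose and 7 fell in DOT1L OE. In RAS these were 33.3% and 26.7% of the list, beside 31.9% and 32.0% of all genes. The shares of all genes were 26.3% and 26.4% in RAS/shDOT1L against RAS, and 29.9% each way in DOT1L OE. P4HB, a disulfide isomerase that is also a subunit of collagen prolyl hydroxylase, rose in RAS (0.62 ± 0.03) and was lower in RAS/shDOT1L than in RAS (-0.66 ± 0.04), as were GANAB (-0.80 ± 0.05) and PRKCSH (-0.84 ± 0.05), the subunits of glucosidase II. ERO1A, the oxidase that recharges disulfide isomerases, fell 2.02-fold in DOT1L OE (-1.01 ± 0.07). Of 14 ER translocation genes, 3 rose and 8 fell in DOT1L OE, led by SPCS3, a subunit of signal peptidase (-1.44 ± 0.06), and 9 were higher and 3 lower in RAS/shDOT1L against RAS. Outside the ER, 6 of 7 mitochondrial chaperones and proteases rose in RAS and 0 fell, with LONP1, a matrix protease, at 1.00 ± 0.05, and of 10 cytosolic heat shock genes 6 rose and 4 fell. LONP1 (-0.98 ± 0.06) and HSPD1 (-1.09 ± 0.06), a chaperonin, were lower in RAS/shDOT1L against RAS.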

How the data were processed

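Poly(A)-enriched RNA of 12 IMR90 libraries was sequenced; the authors aligned reads to GRCh38 with STAR (STAR 2.6.1 and DESeq2 2 in the submitters' processing notes) and deposited read counts for each Ensembl gene ID as whole numbers, not normalized. The strand setting of counting is not given in the sources used here. Gene names came from the reference table of symbols (93.5% of IDs found, 69.8% with a named symbol), and coordinates and transcript GC content from GENCODE release 44 on GRCh38.

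Counts were tested in R 4.3.3 with edgeR 4.0.16 (filterByExpr, TMM, quasi-likelihood F test, two-sided, 6 libraries per comparison), adjusted over all genes tested (13398 to 13660), with limma 3.58.1 (limma-voom) and DESeq2 1.42.0 among the alternatives. A second rule used glmTreat past 1.5-fold. CPM were computed here with TMM-scaled library sizes over all 12 libraries, and ± after a log2 fold change is its standard error. The GC offset entered each library's trend over 20 bins of transcript GC content into the fit. Further alternatives were DESeq2 size factors, library size alone, other filters, 1 fit over the 4 groups, the replicate number as a block, and each library left out in turn. The members, lists, tests and alternatives were chosen with earlier results of these data known. Values in every library are given for the regulators and, per remaining role and comparison, for the 2 called genes of largest change without overlap between groups; other lists give up to 3 genes of smallest p per comparison. Libraries of the same group were distinct, with a chi-square of 4.33 to 7.87 for each degree of freedom between them. Scripts were tested on simulated data.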

Additional observations from a re-analysis of the deposited data

How the results depend on the processing

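Of 2432 values of the 38 genes recomputed under 10 alternatives and with each library left out, 2227 kept their direction and side of the threshold and 205 did not. The cause was not tested. Scaling by library size alone gave 14 genes lower in RAS against control, where 9 were lower with TMM, and gave log2 fold changes of the opposite sign for small changes: in RAS against control ATF4 -0.090, XBP1 -0.046, AARS1 -0.12, NARS1 -0.13, SARS1 -0.037, HSP90B1 -0.080, PDIA3 -0.021, PDIA6 -0.19, DNAJB9 -0.015; in RAS/shDOT1L against RAS HSP90B1 0.045; in DOT1L OE against control SHMT2 0.066, NARS1 0.013; in RAS/shDOT1L against control ASNS -0.061, GARS1 -0.072, NARS1 -0.019, HSPA5 -0.072, HSP90B1 -0.035, DNAJB11 -0.083, CRELD2 -0.058. The GC offset gave the opposite sign for these genes: in RAS against control ATF4 -0.31, AARS1 -0.15, GARS1 0.25, SARS1 -0.074, CANX 0.31, DNAJB11 0.41; in RAS/shDOT1L against RAS XBP1 -0.13, EIF2AK3 -0.18, CHAC1 0.0007, SHMT2 0.014, GARS1 -0.034, NARS1 -0.22, DNAJB11 -0.20, SDF2L1 0.11, HERPUD1 -0.077; in RAS/shDOT1L against control DNAJB9 0.15, CRELD2 -0.065. The replicate number as a block together with the GC offset gave these values: in RAS against control ATF4 -0.30, AARS1 -0.15, GARS1 0.25, SARS1 -0.073, CANX 0.31, DNAJB11 0.41; in RAS/shDOT1L against RAS XBP1 -0.12, EIF2AK3 -0.18, CHAC1 0.0015, SHMT2 0.013, GARS1 -0.040, NARS1 -0.22, DNAJB11 -0.20, SDF2L1 0.12, HERPUD1 -0.074; in RAS/shDOT1L against control DNAJB9 0.14, CRELD2 -0.067. With single libraries left out, the genes lower in RAS/shDOT1L against control numbered 5 to 9, where all 6 libraries of the comparison gave 8, and these log2 fold changes took both signs: in RAS against control PDIA6 -0.0040 to 0.027; in RAS/shDOT1L against RAS EIF2AK3 -0.063 to 0.20, DDIT4 -0.020 to 0.24, HERPUD1 -0.018 to 0.094, DDIT3 -0.044 to 0.18; in DOT1L OE against control SHMT2 -0.044 to 0.022; in RAS/shDOT1L against control ASNS -0.025 to 0.18, GARS1 -0.043 to 0.11, DNAJB11 -0.021 to 0.087, CRELD2 -0.024 to 0.10, WARS1 -0.072 to 0.0033, PDIA3 -0.12 to 0.0079.

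Libraries with the same replicate number did not deviate together (r between -0.02 and 0.03 in each of the 4 pairs of groups compared). The counts thus gave no sign that the numbers pair libraries, but this cannot show what a number marks. With the replicate block alone, the genes called over all genes were 4211 higher and 4224 lower in RAS against control (4327 and 4343 without it), and CALR and PDIA6 lost their calls in RAS/shDOT1L against control. Without the filter on low counts the share of all genes called was 39.3% in RAS against control and 31.6% in RAS/shDOT1L against RAS, beside 64.0% and 52.7% with it. Depth limits DDIT4, DDIT3, ERN1 and EIF2AK3 most, which lay under 20 CPM in every library.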
